A study of Mus musculus with 6 samples.

Results

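The genes described here are 10 genes of the Notch pathway: the receptors Notch1, Notch2 and Notch3, the protease Adam10, the nuclear proteins Rbpj and Maml1, the inhibitor Numb, and Dtx1, Nrarp and Hes1, which Notch signalling induces. They were chosen by symbol from the 37867 gene models of a deposited table, each symbol matched exactly 1 model, and 9 of the 10 are among the 13834 models that the authors tested. The table compares CD4+CD8+ double-positive thymocytes of C57bl6 mice that lack the genes of the microRNAs miR-181a-1 and b-1 with the same cells of wild type mice, 3 sorted populations per genotype. It gives 1 FPKM value (fragments scaled to transcript length and library size) per genotype for each model, so neither a value nor a spread of single populations is shown here. The labels name no Cre line and no age, and leave unsaid whether each population came from its own animal.

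Notch receptors are cut by surface proteases of the ADAM family when they bind a Delta or Jagged ligand on a neighbouring cell, and are then cut again within the membrane by gamma-secretase. The freed intracellular part enters the nucleus, joins the DNA-binding protein RBPJ and a Mastermind coactivator, and turns on target genes. In the thymus, Notch1 signalling commits progenitors to the T lineage and drives the double-negative stages, and it declines as cells become double-positive.

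Transcripts of the double-positive stage were abundant in the RNA of both genotypes. The 8 genes used as markers of that stage, not all of them specific to it, stood between 134 and 1683 FPKM. Of these, 1 passed the threshold, the kinase Lck, and was lower in the knockout. The summed markers of other cells were far lower: 0.242 FPKM in knockout cells and 0.336 FPKM in wild type cells for 4 B cell genes, 0.293 and 0.665 FPKM for 4 dendritic cell genes, 2.37 and 4.28 FPKM for 4 macrophage genes, 0.959 and 2.37 FPKM for 5 genes of thymic epithelium, 0.780 and 2.12 FPKM for 3 erythroid genes, and 0.255 and 0.828 FPKM for 2 genes of gamma-delta T cells. Of these 22 genes, only Lyz2, Cd68, Siglech, Epcam, Hba-a2, Hbb-b1 and Blk were tested. Epcam and Hba-a2 passed the threshold and were lower in the knockout, beside 15.3% of all tested models that passed as lower. Foxn1, which defines thymic epithelium, was not tested and stood at a listed 0 in knockout cells and 0.0099 FPKM in wild type cells. In bulk samples, fewer cells of a type and less RNA per cell cannot be told apart. The 4 markers of the double-negative stage are taken up among the targets below.

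The microRNAs that the knockout removes share 1 seed, the stretch of 7 bases that pairs with a target. Both mature sequences are shown 5′ to 3′ with that seed (bases 2 to 8) in capitals, because the letters searched in the members follow from it. They are from RefSeq in the build GRCm38.p6, on the + strand at chr1:137966468-137966490 and chr1:137966650-137966673. The same mature sequences are also encoded by the genes Mir181a-2 and Mir181b-2, which the labels do not name as deleted.
mmu-miR-181a-5p: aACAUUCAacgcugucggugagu
mmu-miR-181b-5p: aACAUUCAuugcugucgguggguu

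The 3′ UTRs of the 10 genes were searched, on the transcript strand, for the 8-base match TGAATGTA, the 7-base matches TGAATGT and GAATGTA, and the 6-base core GAATGT that all of these contain. Only Notch2, Rbpj and Numb held a match of 7 or 8 bases, 3 of 10 genes. Of 8992 coding genes that averaged at least 1 FPKM and have a 3′ UTR in the reference, 23.4% held one, and 6.12% held the match of 8 bases. Each site is shown with its surroundings, with the match in capitals. The site of Notch2 is the match of 8 bases, at bases 2630 to 2637 of a 3′ UTR of 2917 bases, and the window lies on the + strand at chr3:98150063-98150092. That of Rbpj is a match of 7 bases at bases 2375 to 2381 of 3742, on the + strand at chr5:53655984-53656013. That of Numb is of the same kind at bases 942 to 948 of 1405, on the - strand at chr12:83794479-83794508. The sequences are from GENCODE M21 transcripts and the positions are in GRCm38.
Notch2 site: aaccagcgcgtTGAATGTAcgaggactgtt
Rbpj site: acaaagttcaaGAATGTAacaataaaggca
Numb site: tatgctctagaGAATGTAtgttgaatcttt

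Notch1 held only the core of 6 bases, once in 1628 bases of 3′ UTR, and Notch2 and Rbpj held that core at further positions. Notch3, Dtx1, Hes1, Nrarp, Adam10 and Maml1 held none of these letters in 3′ UTRs of 368 to 2215 bases. A match describes letters, not a site shown to act, and the absence of a match says only that these letters are not in the reference 3′ UTR.

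None of the 9 tested genes passed the threshold, a q-value below 0.05 as the authors' deposited table lists it, whereas 17.1% of all tested models did (15.3% lower and 1.79% higher in the knockout). Lower models made up 89.6% of those calls, and 75.03% of the calls after centring. At an unadjusted p under 0.05 there was 1 of the 9, Maml1, against 27.4% of all tested models. As listed, 8 of the 9 values were lower in the knockout and 1, that of Adam10, was higher, beside 59.6% of all tested models with a lower value. The split became 7 and 2 with ratios centred on the median of all tested models, and 5 and 4 without the GC and length trend described below. The log2 ratios of knockout over wild type ran from -1.07 to 0.17 with a median of -0.38, beside a median of -0.17 over all tested models. These counts describe values and do not show that the genes are unchanged. Each interval below is a 95% interval from the standard error (SE) that the deposited test statistic implies, and shows what size of difference the data leave possible.

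**Figure D1:**
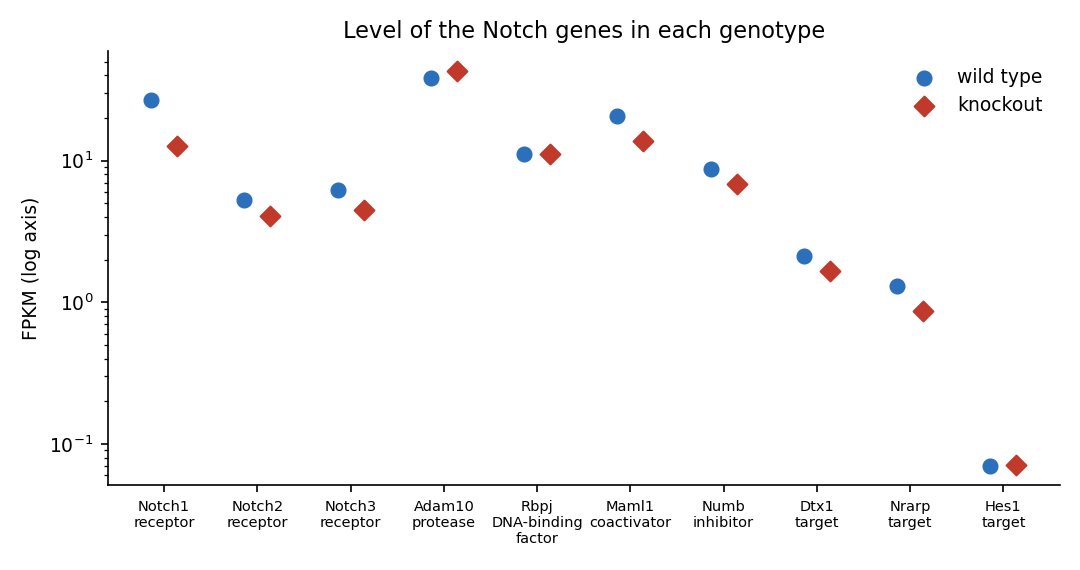
FPKM on a log axis for the 10 genes, ordered by role, with 1 value per genotype (circles for wild type, diamonds for knockout) and no error bars because the table pools the populations. Adam10 is highest in both genotypes, at 43.3 and 38.5 FPKM, Hes1 is lowest at about 0.07 FPKM, and Notch1 has the widest gap.

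The levels covered a wide range, and the induced genes were at its lower end. On the FPKM scale, which is per length, Adam10 was the most abundant in both genotypes, and Hes1, Nrarp and Dtx1 were the least abundant, in that order from the lowest. The order of the 10 levels was the same in both genotypes except for Notch1 and Maml1: Notch1 stood above Maml1 in the wild type and below it in the knockout. No spread of a level is available, so neighbours in that order were not compared.

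Notch1 is the receptor that T lineage commitment depends on. The authors' table places it on chromosome 2 from 26301464 to 26359157 (mm9, as are all positions of models), and the reference transcript has 34 exons. It stood at 12.7 FPKM in knockout cells and 26.7 FPKM in wild type cells. The knockout value was the lower one by 2.10-fold, with a log2 ratio of -1.07 and an implied SE of 1.40 (q = 0.713 by the authors' deposited table). The interval of the ratio ran from -3.81 to 1.67, so both a large loss and a rise to 3.18-fold lie within it. This error was larger than that of 92.8% of tested models, although 72.7% of them had a lower mean FPKM.

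A second model in the authors' table, AK075572, is listed with the same span as Notch1 and stood the other way: 6.73 FPKM in knockout cells and 0.358 FPKM in wild type cells. Its log2 ratio was 4.23 with an implied SE of 10.02 (q = 0.875 by the authors' deposited table), so that neither model passed the threshold and both were imprecise. The table lists models that overlap under 1 common span, the TruSeq RNA kit keeps no strand information, and the division of reads among overlapping models is not stated in the labels or the table. Whether the low Notch1 value and the high AK075572 value are connected was not tested.

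Notch2, the second receptor (chromosome 3, 97817460 to 97968062), stood at 4.03 FPKM in knockout cells and 5.25 FPKM in wild type cells. This gave a log2 ratio of -0.38 with an implied SE of 0.26 and an interval from -0.89 to 0.13 (q = 0.365 by the authors' deposited table). As listed, the upper bound of the interval lies at a rise of 1.09-fold. Without the GC and length trend described below the ratio was -0.0014, with an interval from -0.51 to 0.51. The 3′ UTR of Notch2 holds the match of 8 bases shown above, and the part of that match in these values was not tested.

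Notch3, a receptor that is itself induced by Notch in early thymocytes (chromosome 17, 32250373 to 32303797), stood at 4.51 FPKM in knockout cells and 6.25 FPKM in wild type cells. Its log2 ratio was -0.47 with an implied SE of 0.26 and an interval from -0.99 to 0.05 (q = 0.241 by the authors' deposited table). The 3 receptors together came to 21.3 FPKM in knockout cells and 38.2 FPKM in wild type cells. Notch1 made up 59.8% of that sum in knockout cells and 69.9% in wild type cells, Notch3 21.2% and 16.3%, and Notch2 18.97% and 13.7%. Notch1 was thus the most abundant receptor per length in both genotypes, and its lower share in knockout cells rests on the imprecise value of Notch1.

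Adam10, the protease that makes the first cut in a ligand-bound receptor (chromosome 9, 70526807 to 70628036), stood at 43.3 FPKM in knockout cells and 38.5 FPKM in wild type cells. For Adam10 this was a log2 ratio of 0.17 with an implied SE of 0.23 (q = 0.721 by the authors' deposited table), and it was one of the most precise values in the table, with a larger error in all but 1.25% of tested models. The interval from -0.27 to 0.61 allows changes between 0.828-fold and 1.53-fold.

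Rbpj, the DNA-binding partner of all Notch receptors (chromosome 5, 53921039 to 54048684), was nearly equal in the genotypes. It stood at 11.14 FPKM in knockout cells and 11.15 FPKM in wild type cells, with a log2 ratio of -0.00082, an implied SE of 0.26 and an interval from -0.52 to 0.52 (q = 0.9997 by the authors' deposited table). As listed, this interval spans 1.43-fold either way. Centring on the median of all tested models turned the ratio to 0.17, and without the GC and length trend it was -0.22, with an interval from -0.74 to 0.30. Its model also carries the name AK164362, and 2 models of the lincRNA linc-Rbpj-AS are listed with the same span at 0 to 0.00084 FPKM.

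Maml1, the Mastermind coactivator that completes the complex of Rbpj and the receptor's intracellular part (chromosome 11, 50049970 to 50105818), had the smallest p of the 10 genes. It stood at 13.8 FPKM in knockout cells and 20.8 FPKM in wild type cells. For Maml1 the log2 ratio was -0.59 with an implied SE of 0.25 and an interval from -1.08 to -0.11, the only one of the 9 that did not include 0. With adjustment over all tested models it missed the threshold (q = 0.0840 by the authors' deposited table).

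Numb, an endocytic adaptor that antagonises Notch (chromosome 12, 85136388 to 85262808), stood at 6.82 FPKM in knockout cells and 8.72 FPKM in wild type cells. The log2 ratio of Numb was -0.35 with an implied SE of 0.32 and an interval from -0.97 to 0.26 (q = 0.533 by the authors' deposited table). Like Notch2, it holds a seed match in its 3′ UTR and had the lower value in the knockout.

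Among the induced genes, Dtx1, which encodes a ubiquitin ligase of the Deltex family (chromosome 5, 121130272 to 121161678), stood at 1.65 FPKM in knockout cells and 2.13 FPKM in wild type cells. Its log2 ratio was -0.37 with an implied SE of 0.40 and an interval from -1.15 to 0.42 (q = 0.639 by the authors' deposited table). Nrarp, a small ankyrin protein that binds the Notch complex and limits it (chromosome 2, 24972062 to 25044047), stood at 0.870 FPKM in knockout cells and 1.31 FPKM in wild type cells. The log2 ratio of Nrarp was -0.58 with an implied SE of 0.41 and an interval from -1.38 to 0.22 (q = 0.385 by the authors' deposited table). The listed span of the Nrarp model is 71986 bases, whereas its reference transcript is a single exon of 2582 bases, and a model named AK085201 is listed with the same span at 0.0608 and 0.117 FPKM.

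Hes1, a transcriptional repressor and the most widely used readout of Notch signalling (chromosome 16, 30065442 to 30067882), was near 0 in both genotypes. It stood at 0.0713 FPKM in knockout cells and 0.0701 FPKM in wild type cells, below the mean of every tested model, and the authors did not test it. No fold is given for it. The low level of Hes1 was common to both genotypes.

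**Figure D2:**
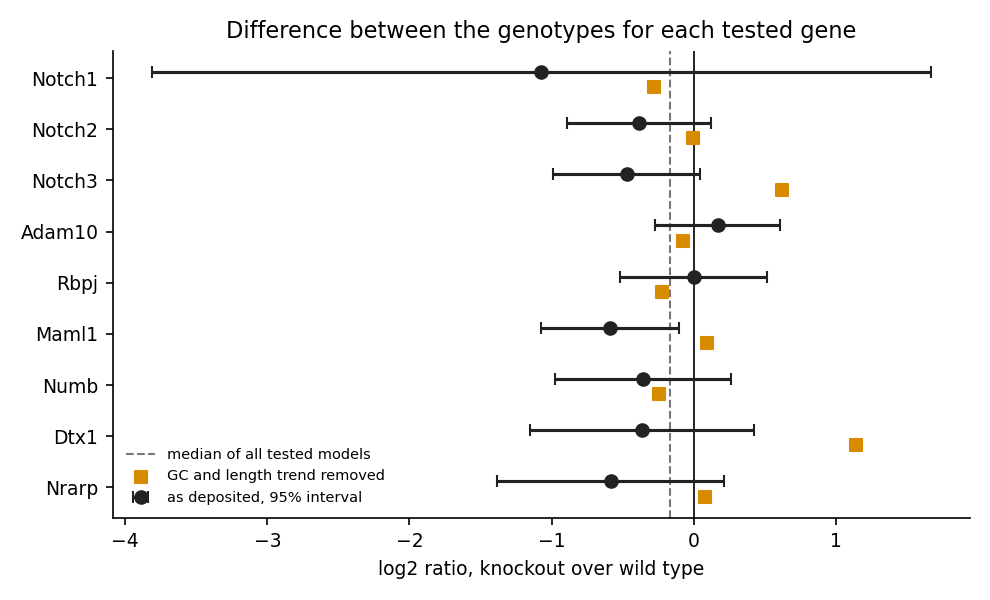
log2 ratio of knockout over wild type for the 9 tested genes (circles) with 95% intervals, and the same ratio without the GC and length trend (squares, no interval drawn). The dashed line is the median of all tested models at -0.17. Maml1 is the only gene whose interval does not reach 0, Notch1 has the widest interval, and the squares of Dtx1 and Notch3 lie to the right of 0.

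The ratios of these genes were lower where the transcript was richer in G and C, with Dtx1 and Notch3 as exceptions. Across the coding genes of the table, ratios fell with rising GC content: the median log2 ratio was 0.30 in the tenth of genes with the lowest GC content and -1.30 in the tenth with the highest. Adam10 (42.1% GC) and Rbpj (43.7% GC) have the lowest GC content of the 9 genes and had the highest ratios. The 6 genes with more than 50% GC had log2 ratios from -1.07 to -0.37, with a median of -0.53. GC content is known to affect sequencing libraries and its part in these differences was not tested.

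A trend with the GC content and length of transcripts was fitted over the 9010 coding genes that averaged at least 1 FPKM, and subtracted. After that, 1.73% of the genes had an adjusted p under 0.05, and none of the 9 Notch genes was among them. The median of the 9 values moved from -0.38 to -0.0014, and 5 were below 0 and 4 above it. Notch1 went to -0.28, Notch2 to -0.0014, Numb to -0.24, Rbpj to -0.22 and Adam10 to -0.075. Maml1 went from -0.59 to 0.10, and Nrarp from -0.58 to 0.082.

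Dtx1 and Notch3 were the 2 genes that moved furthest from the rest. Dtx1, with 62.5% GC, lies in a range where the trend was at a log2 ratio of -1.50, and its own ratio of -0.37 left a difference of 1.14, or 2.84 implied SE, with an interval from 0.35 to 1.93. That difference was larger than that of 99.4% of coding genes. Notch3, with 59.6% GC, stood 0.62 above the trend, or 2.35 implied SE, with an interval from 0.10 to 1.14, and higher than 94.7% of coding genes. Both thus stood above the trend, but with adjustment over all coding genes neither passed the threshold, and 99.0% of coding genes have a lower GC content than Dtx1, so few genes support the trend at that point.

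**Figure D3:**
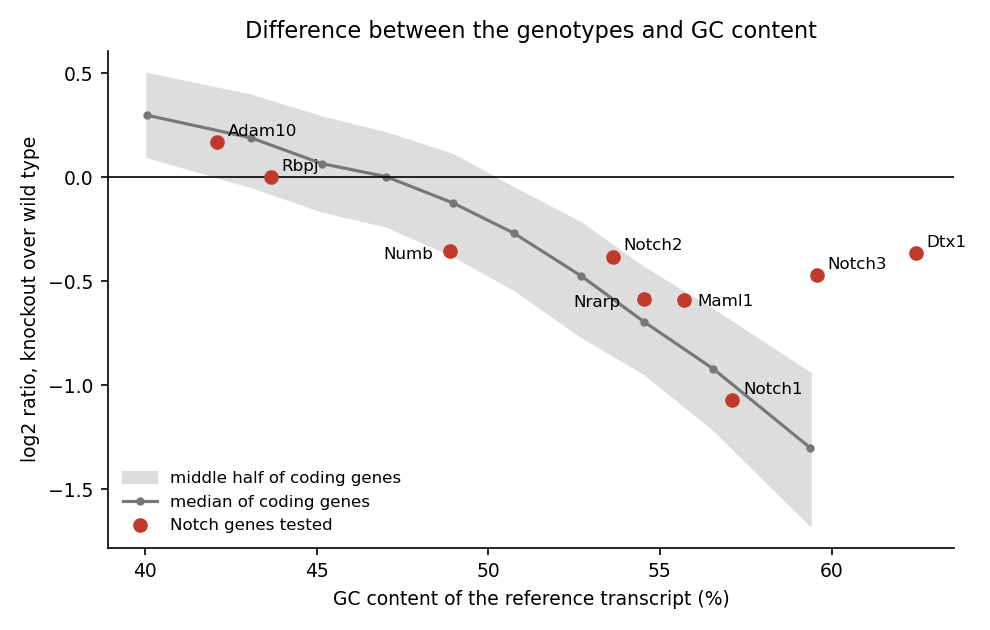
log2 ratio of knockout over wild type against the GC content of the reference transcript in percent, for the 9 tested Notch genes (labelled points), with the median (line) and the interquartile range (grey) of coding genes in 10 groups of equal size by GC content. Most of the genes lie in or close to the grey band. The band ends at 59.4% GC, and Notch3 and Dtx1 lie past that end, at ratios above its upper edge there.

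Genes with a seed match were compared with those without one only as a description. Over coding genes, the median log2 ratio was 0.19 for the 550 with a match of 8 bases and -0.36 for the 6884 with no match of 7 or 8 bases, and their median GC content was 45.7% and 51.03%. After the trend was removed the medians were 0.11 and -0.01. The Notch genes with a match stood at -0.0014 (Notch2), -0.22 (Rbpj) and -0.24 (Numb) on that scale, and of these only Notch2 was above the median of genes without a match. The part of the seed matches in these values was not tested.

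The other genes of the pathway were described by a list of 62 genes in 8 groups by role, which gave 61 models, of which 48 were tested. Of these, 14 were lower in the knockout, 2 were higher and 32 did not pass the threshold, or 33.3% past it, beside 17.1% of all tested models. After centring, 13 were lower and 3 higher, or 33.3%, beside 14.4% of all tested models. The median log2 ratio of the 48 was -0.38, beside -0.17 over all tested models. After the trend with GC content and length was removed, 1 of the 44 with a value, Il2ra, was past the threshold, beside 1.73% of all coding genes in the fit. The median of the 44 was then 0.0049. Over all tested models, 15.3% passed as lower and 1.79% as higher, which are the shares to set beside the counts by role below.

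Thymocytes receive Notch signals from thymic epithelium, and of 5 ligand genes only Jag2 was tested, and it was lower in the knockout at 0.428 FPKM against 1.12 FPKM (log2 -1.38, implied SE 0.41, q = 0.0070 by the authors' deposited table). Jag2 has 61.9% GC, and the tenth of coding genes with the highest GC content had a median log2 ratio of -1.30. Its mean was below the minimum for the trend fit, so no value without the trend is available. Dll4, the ligand that thymic epithelium presents to progenitors, stood at 0.0096 and 0.0209 FPKM, and Jag1 at 0.0061 and 0.0134 FPKM. Epcam, a surface protein of epithelium, was low and also lower in the knockout, at 0.932 FPKM against 2.30 FPKM. It made up most of the summed FPKM of the 5 epithelial markers, and the others were not tested. Krt8 stood at 0.0054 and 0.0346 FPKM and Psmb11 at 0.0081 and 0.0193 FPKM in knockout and wild type cells. Krt5 stood the other way, at 0.0140 and 0.0113 FPKM, and Foxn1 is given above. The part of epithelial RNA in the Jag2 value was not tested. The receptor Notch4 was not tested, at 0.0671 and 0.0976 FPKM.

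Of 8 further protease models, Furin, the convertase that cleaves Notch precursors on their way to the surface, fell to 6.79 from 15.2 FPKM (q = 0.00088 by the authors' deposited table), and the other 7 did not pass. Those 7 include the gamma-secretase subunit Ncstn, at 30.2 FPKM in knockout cells and 39.7 FPKM in wild type cells. Of 5 genes that add sugars to Notch, the fringe enzyme Mfng fell to 6.09 from 12.9 FPKM (q = 0.0042 by the authors' deposited table). The related enzyme Rfng stood at 14.3 and 22.1 FPKM, and the fucosyltransferase Pofut1 at 5.99 and 6.43 FPKM, and neither passed. After removal of the trend, Furin was at -0.11 and Mfng at 0.06.

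Among 9 tested genes of ubiquitin transfer and endocytic traffic, 3 fell and none rose as listed, beside 15.3% and 1.79% of all tested models. With ratios centred on the median of all tested models, Dtx3l, a Deltex relative picked out here after its values were seen, also passed, as higher (33.8 FPKM against 20.9 FPKM, q = 0.0561 by the authors' deposited table and 0.0150 after centring). Dtx2, a Deltex relative of Dtx1, fell to 4.17 from 14.8 FPKM (log2 -1.83, implied SE 0.33, q = 1.64e-06 by the authors' deposited table). Mib2, a ligase that acts on ligands, fell to 3.25 from 9.30 FPKM, and Numbl, the relative of Numb, to 0.193 from 0.807 FPKM (q = 0.00039 and 0.0048 by the authors' deposited table). Dtx3 stood at 42.2 and 54.5 FPKM and the ligase Itch at 36.03 and 29.1 FPKM, without passing the threshold. The implied SE of Dtx3 was 4.54, larger than that of 98.2% of tested models, and that of Itch was 0.27. After removal of the trend Dtx2 was at -0.58 and Mib2 at -0.12, and Numbl was below the minimum mean for that fit.

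In the nucleus, 2 of 7 coactivators passed, in opposite directions, beside 17.1% of all tested models. The acetyltransferase Kat2b rose to 21.4 from 13.3 FPKM, and its relative Kat2a fell to 5.12 from 11.6 FPKM (q = 0.0306 and 0.0010 by the authors' deposited table). Snw1 stood at 57.7 and 61.04 FPKM and Crebbp at 41.5 and 35.8 FPKM. Of 11 tested corepressors, 4 fell and none rose, beside 15.3% and 1.79% of all tested models. Those that fell include Ctbp1, to 36.2 from 77.9 FPKM, Tle2, to 3.34 from 8.26 FPKM, and Tle3, to 29.1 from 46.1 FPKM (q from 0.00060 to 0.0456 by the authors' deposited table). The call of Tle3 was lost with centred ratios, at a log2 value of -0.50 and a q of 0.176. Ncor1, the most abundant of this group, stood at 263 and 210 FPKM, and the demethylase Kdm5a at 80.02 and 63.5 FPKM. After removal of the trend none of these 5 genes was past the threshold, with Kat2b at 0.62, Kat2a at -0.15, Ctbp1 at -0.28, Tle2 at -0.09 and Tle3 at 0.22.

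Genes listed here as other targets, among them relatives of Hes1, passed the threshold in both directions. The list was set by symbol, and whether Notch induces each of its genes in these cells was not tested. Of the 12 listed genes, 7 were tested: 3 passed as lower, 1 as higher and 3 did not pass. All of the 7 except Il2ra had the lower listed value in the knockout, beside 59.6% of all tested models. The median log2 ratio of the 7 was -0.59, beside -0.17 over all tested models, and -0.28 without the trend. Il2ra, which encodes a chain of the interleukin-2 receptor, rose to 29.4 from 2.89 FPKM, with a q listed as 0 in the authors' deposited table, and was past the threshold without the trend at a log2 value of 3.20. Ptcra, which encodes a chain of the pre-T cell receptor, fell to 9.59 from 26.1 FPKM, the growth regulator Myc fell to 4.91 from 13.1 FPKM, and Hes6 fell to 17.9 from 35.2 FPKM (q from 2.89e-05 to 0.0102 by the authors' deposited table). Without the trend these 3 were at -0.40, -0.86 and 0.54 and none passed. The transcription factors Tcf7, at 1718 and 2580 FPKM, and Gata3, at 17.5 and 26.1 FPKM, did not pass. The repressors Hes5, Hes7, Hey1, Hey2 and Heyl were not tested and stood between 0 and 0.134 FPKM, like Hes1 near the bottom of the table. Il2ra and Ptcra also mark the double-negative stage, and the other markers of that stage, Kit at 0.370 and 0.672 FPKM and Cd44 at 3.81 and 2.96 FPKM, did not pass.

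**Figure D4:**
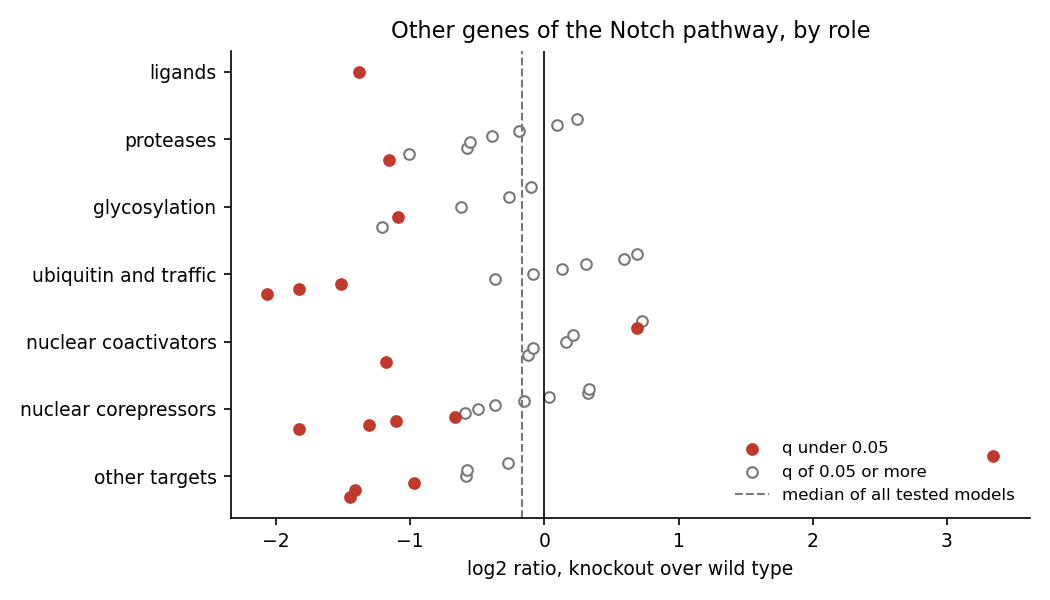
log2 ratio of knockout over wild type for the 48 tested models of the other Notch pathway genes, in rows by role, with those at a q under 0.05 filled. The dashed line is the median of all tested models at -0.17. Filled points lie on the left except for Kat2b among the coactivators and Il2ra, at 3.35, among the other targets.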

How the data were processed

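RNA of sorted CD4+CD8+ thymocytes was sequenced from 3 populations per genotype. Per the labels' protocols, extraction used Trizol or a column kit, not tied to a sample, and the library kit was TruSeq RNA. The submitters' processing notes name TopHat2 and mm9, and no source used here names the counting or testing tool. The authors deposited 1 table with 1 FPKM value per genotype, a log2 ratio, a test status, q-values and p-values, and the test statistic, a z-like score. Recomputed from the file, p-values were normal tails of the statistic and q-values were Benjamini-Hochberg adjusted over tested models. Counts and depth are unknown here, and whether the p-values measure the spread between populations is unknown.

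Ratios were recomputed as knockout over wild type, and the implied standard error is the size of the log2 ratio over the statistic. GC content, length and 3′ UTRs came from the longest basic coding transcript per gene in GENCODE M21. Transcripts over 1.2 times as long as the listed span were left out. The trend was a robust regression (statsmodels 0.14.6) on GC content and log2 length, each as a cubic spline in 5 pieces. Its removal was tested on ratios simulated from that same fitted trend, with noise of the implied errors. Such a simulation cannot check the form of the trend or the size of those errors. Named genes were the members, every listed pathway gene past the threshold, and the 2 most abundant others of each list, except that 2 of the listed genes are counted but not reported here by name. Older symbols were matched through RefSeq synonyms (6 genes). Members and lists were chosen with earlier results of these data known.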

Additional observations from a re-analysis of the deposited data

How the results depend on the processing

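No member passed under centring on the median of all tested models, removal of the GC and length trend, a q under 0.01 or a minimum mean of 1 FPKM, and 1, Maml1, passed at a q under 0.1. With the trend removed, the count of the pathway list moved from 16 of 48 models to 1 of 44. The share over all features moved from 17.1% of tested models to 1.73% of coding genes in the fit. Jag2 and Numbl, among the 16, were below the minimum mean for the fit. The median of the members moved from -0.38 to -0.0014, and the values of Notch3 (0.62), Dtx1 (1.14), Nrarp (0.082), Maml1 (0.10) and Adam10 (-0.075) changed sign. Centring turned Rbpj to 0.17. None of these 6 values was past the threshold of 0.05 under centring or without the trend, and the cause was not tested. The other 39 single-gene values kept their direction. Those with pseudocounts of 0.1 and 1 FPKM, or with FPKM summed over models, carry no test, and they moved by less than 1 implied SE. The pathway count stayed between 13 and 17 under the other settings, and at 16 under centring it exchanged Tle3 for Dtx3l. Under centring, 14.4% of all tested models passed, and no such share is given for the remaining settings. No paired analysis was possible because the table gives 1 value per genotype, and for the same reason no population could be left out. Without counts, what depth limits is known only through the implied errors.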
